A study of Mus musculus with 4 samples.

Results

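The signal transducer and activator of transcription (STAT) genes were followed through 4 RNA-seq libraries of mouse T helper 17 (Th17) cultures. The 6 members described here, Stat2, Stat3, Stat4, Stat5a, Stat5b and Stat6, were taken by gene symbol from the 19555 rows of the table, and all 6 passed the filter of a mean of at least 1 RPKM (reads per unit of exon length and of library size) that 13715 rows passed. Naive CD4+ T cells of C57BL/6 mice, sorted from lymph nodes and spleen, were activated and kept for 3 days with IL-6 and TGF-β1, so every group shares these cytokines. The groups were Smad4 KO at 39.5 °C, Smad4 KO at 37 °C, wild type (WT) at 39.5 °C and WT at 37 °C, with 1 library each. The comparisons ask how fever-range heat and the loss of Smad4, the common partner of TGF-β-activated SMAD proteins, bear on these cells. The sources used here do not give the Smad4 allele, the cells in which it was deleted or the number of mice behind a library.

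STAT proteins wait in the cytoplasm until a cytokine receptor and its Janus kinase (JAK) phosphorylate them, whereupon they pair and act as transcription factors in the nucleus. In CD4+ T cells different members carry different cytokine signals: STAT3 those of IL-6, IL-21 and IL-23 that drive Th17 differentiation, STAT5A and STAT5B those of IL-2, which oppose it, STAT4 that of IL-12, STAT6 that of IL-4, and STAT2, with its partner IRF9, that of type I interferon. The transcript level of a STAT gene says nothing of how much of its protein is phosphorylated, which was not measured here.

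Smad4 stood at 21.3 and 20.7 RPKM under the Smad4 KO label at 39.5 and 37 °C, against 14.2 and 14.0 RPKM in WT at 39.5 and 37 °C, which places the deleted gene higher under the KO label (log2 0.54 ± 0.12, adjusted p = 0.045 in the limma fit below), and "Smad4 KO" below is the label of a library. Loss of a few exons would be hidden in a value for the whole gene. The reads behind the values came to between 18048479 and 18474773 per library. All 7 listed T cell markers were detected, with a summed level between 1175 and 1347 RPKM. The 7 Th17 markers summed to 420 and 267 RPKM in the Smad4 KO libraries at 39.5 and 37 °C, against 2124 and 708 RPKM in WT. The 3 CD8 and NK cell markers in the table summed to at most 12.0 RPKM, the 2 B cell markers to at most 14.4 RPKM and the 4 myeloid markers to at most 1.72 RPKM, where Cd14 was at 0 in WT at 37 °C.

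The promoters of 2 members are shown because they held a motif of the interferon pathway. RefSeq (GRCm38.p6) gave start sites for all 6 members, 9 windows in all, and the 250 bases before each start were searched on both strands. The core of the interferon-stimulated response element, GAAA followed after any 2 bases by a second GAAA, was present before the Stat2 start and before the internal one of the 2 Stat4 starts, and in 2.98% of all 32851 such windows. The STAT dimer site TTCNNNGAA (7.02% of windows), the heat shock element (GAA, TTC and GAA, each 2 bases apart, 0.466%) and the SMAD palindrome GTCTAGAC (0.167%) were in none of the 9. The Stat5a windows held 175 and 139 bases of annotated Stat5a exons, and the first Stat5b window 143 bases of Stat5b exons. Those windows are thus not wholly upstream sequence. The wider spacing preferred by STAT6, with 4 bases between TTC and GAA (5.85%), was in the Stat2 window alone. Below, capitals mark those matches, and the Stat4 window at the first start, which had none, is given for comparison.
Stat2, chr10:128270248-128270497, plus strand: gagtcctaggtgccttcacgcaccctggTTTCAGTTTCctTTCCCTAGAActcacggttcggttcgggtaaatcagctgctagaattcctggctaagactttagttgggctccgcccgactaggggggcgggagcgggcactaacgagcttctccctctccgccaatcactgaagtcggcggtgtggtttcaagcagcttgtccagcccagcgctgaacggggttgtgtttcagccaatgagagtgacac
Stat4 internal start, chr1:52007990-52008239, plus strand: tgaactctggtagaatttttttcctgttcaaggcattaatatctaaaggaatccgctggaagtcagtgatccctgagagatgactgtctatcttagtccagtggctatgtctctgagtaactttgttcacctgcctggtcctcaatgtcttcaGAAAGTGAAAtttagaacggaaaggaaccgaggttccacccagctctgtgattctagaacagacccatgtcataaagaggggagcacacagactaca
Stat4 first start, chr1:51986898-51987147, plus strand: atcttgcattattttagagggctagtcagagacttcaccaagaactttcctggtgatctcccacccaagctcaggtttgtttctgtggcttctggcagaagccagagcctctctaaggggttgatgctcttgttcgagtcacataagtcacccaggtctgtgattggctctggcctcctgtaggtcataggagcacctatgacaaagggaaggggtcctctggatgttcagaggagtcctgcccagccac
In the Stat2 window the interferon element lay 222 to 213 bases before the start, as the reverse complement, and the STAT6-type spacing lay 210 to 201 bases before it, without overlap. In the Stat4 window the element lay 97 to 88 bases before the internal start. A match is a description of letters and not of a bound site.

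Among the 6 members, Stat5b, Stat6, Stat5a and Stat3 were abundant and Stat4 and Stat2 were not. The 4 abundant genes made up 97.3% and 97.8% of the summed RPKM of the 6 members in Smad4 KO at 39.5 and 37 °C, and 95.8% and 97.9% in WT at 39.5 and 37 °C. The IL-2-linked members Stat5a and Stat5b together held between 50.8% and 56.9% in every library. Stat4 and Stat2 each had at most 3.18% of the sum. Among all rows of a library, Stat5b ranked above between 92.1% and 93.7%, Stat3 above between 85.5% and 88.9%, Stat4 above between 43.7% and 59.5% and Stat2 above between 38.6% and 46.8%. The highest member exceeded the lowest 21.4-fold and 31.6-fold in Smad4 KO at 39.5 and 37 °C, and 29.9-fold and 36.0-fold in WT. In bulk samples fewer cells that express a gene and less RNA per cell cannot be told apart. The members differ in the number and length of their exons, and the part of read placement across introns in these shares and ranks was not tested.

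The order of levels was not the same in all libraries. Stat5b was highest in all but WT at 39.5 °C, where Stat6 led by a ratio of 1.05 (95% counting interval 1.01 to 1.09). Stat3 was the 4th in every library, between 14.5% and 17.4% of the sum. Neighbours in the order whose interval of the ratio included 1 were Stat5b and Stat6 in Smad4 KO at 39.5 °C (1.03, 0.994 to 1.07) and Stat5b and Stat5a in WT at 37 °C (1.03, 0.998 to 1.07). The same held for Stat4 and Stat2 in Smad4 KO at 39.5 °C (1.02, 0.855 to 1.22) and for Stat2 over Stat4 in Smad4 KO at 37 °C (1.20, 0.999 to 1.45). These intervals cover counting error only, and no spread between cultures could be measured.

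**Figure D1:**
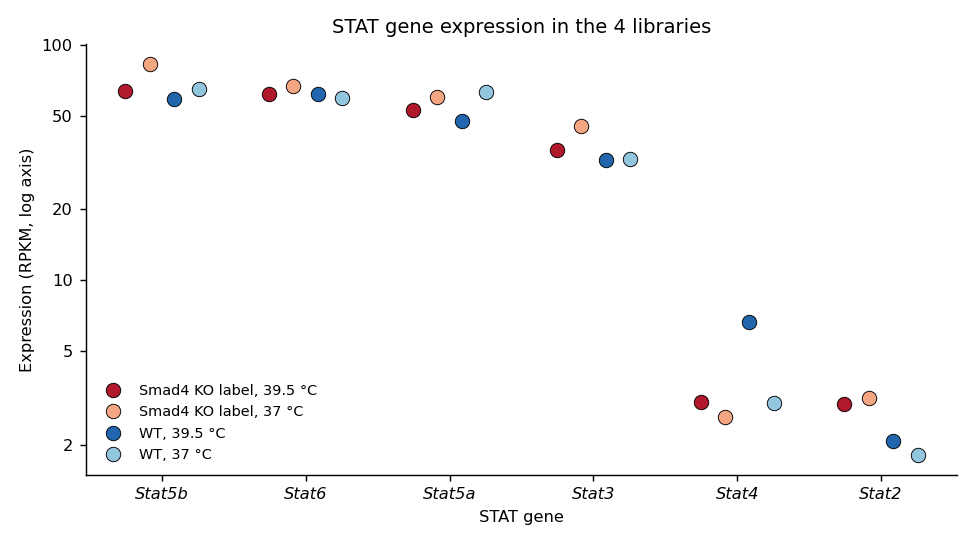
Expression of the 6 STAT genes in RPKM (log axis), 1 point per library, with no error bar because each group had 1 library. Stat5b, Stat6, Stat5a and Stat3 lie between 32.5 and 83.3 RPKM, and Stat4 and Stat2 between 1.81 and 6.67 RPKM, where Stat4 in WT at 39.5 °C stands above the other libraries.

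Stat4, which carries IL-12 signals and is best known from Th1 cells, was the member whose level differed most between libraries. It stood at 3.03 RPKM (216 reads) and 2.64 RPKM (180 reads) in Smad4 KO at 39.5 and 37 °C, and at 6.67 RPKM (499 reads) and 3.02 RPKM (213 reads) in WT at 39.5 and 37 °C. The WT library at 39.5 °C was the high one, and the other 3 lay close together. In WT the ratio of 39.5 to 37 °C was 2.21 (95% counting interval 1.88 to 2.61), against 1.15 (0.939 to 1.41) in Smad4 KO. The temperature ratio in Smad4 KO over that in WT was 0.520 (0.403 to 0.671). On the log2 scale with 1 RPKM added to each value, where changes of low genes look smaller, the difference was −0.78.

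Stat4 was the single member past 1.5-fold on that scale for temperature in WT, where 7.93% of all rows were. It was also the single one past it for the difference between the temperature responses, where 9.82% of all rows were, and for the genotype label at 39.5 °C (ratio 0.454, 0.385 to 0.534), where 15.4% were. At 37 °C the ratio of Smad4 KO to WT was 0.873 (0.712 to 1.07). A count of 1 is the smallest above 0 that 6 members can give, and it is not read against these shares as a property of the family. For temperature in Smad4 KO and for the genotype label at 37 °C, 0 of 6 members passed 1.5-fold, against 7.12% and 18.8% of all rows. At 2-fold 0 of 6 passed for temperature in Smad4 KO and in WT, for the label at 39.5 and 37 °C and for the difference, where 1.66%, 1.98%, 3.35%, 5.84% and 2.22% of all rows did. That 0 depends on the added 1 RPKM: with 0.5 RPKM added Stat4 had log2 values of 1.03 for temperature in WT and −1.02 for the label at 39.5 °C, past 2-fold, as its RPKM ratios are.

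The markers of CD8 and NK cells did not move together. The summed level of Cd8b1, Nkg7 and Prf1, the 3 of that list in the table, was 9.81 and 6.26 RPKM in Smad4 KO at 39.5 and 37 °C, and 12.0 and 6.69 RPKM in WT. That order is the order of Nkg7 alone, at 6.66 and 1.67 RPKM in Smad4 KO and at 7.99 and 3.06 RPKM in WT. Cd8b1 and Prf1 were highest in Smad4 KO at 37 °C, at 4.01 and 0.570 RPKM, and the part of these cells in the Stat4 values was not tested. The genes with a pattern most like that of Stat4 over the 4 libraries, by Euclidean distance of centred log2(RPKM + 1), were Stk38l (0.11), Slc29a3 (0.12) and Rbbp8 (0.16). Slc29a3, for example, was at 7.74 and 7.62 RPKM in Smad4 KO at 39.5 and 37 °C and at 17.0 and 8.71 RPKM in WT.

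**Figure D2:**
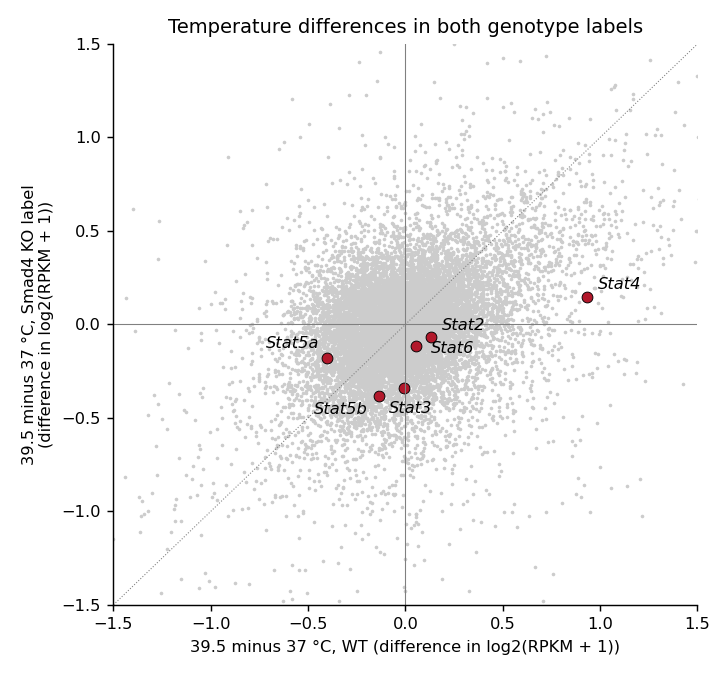
Difference in log2(RPKM + 1) between 39.5 and 37 °C in the Smad4 KO libraries (vertical axis) against that in WT (horizontal axis), for the 13715 tested rows in grey and the 6 STAT genes in red. Axes end at ±1.5, which leaves out 119 rows, and the dotted line marks equal differences. Stat4 lies far to the right of the line, at 0.93 in WT and 0.15 in Smad4 KO.

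Stat2, the member that joins IRF9 in the interferon-activated complex ISGF3, was higher under the KO label at both temperatures. It stood at 2.97 and 3.17 RPKM in Smad4 KO at 39.5 and 37 °C, and at 2.07 and 1.81 RPKM in WT at 39.5 and 37 °C. Both KO-labelled libraries lay above both WT libraries. The ratio of Smad4 KO to WT at 39.5 °C was 1.43 (95% counting interval 1.21 to 1.70), and that at 37 °C was 1.75 (1.46 to 2.10). The temperature ratios were 0.938 (0.802 to 1.10) in Smad4 KO and 1.15 (0.945 to 1.39) in WT, each with an interval that includes 1. The rows with the most similar pattern over the 4 libraries were RP23-32C18.6 (distance 0.014), H2afy (0.019) and Akr1b10 (0.027). H2afy, which encodes a macroH2A histone, was at 71.6 and 75.9 RPKM in Smad4 KO at 39.5 and 37 °C and at 54.9 and 50.9 RPKM in WT.

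Stat3, the member on which Th17 differentiation depends, was highest in the Smad4 KO library at 37 °C. Its level was 35.6 and 45.4 RPKM in Smad4 KO at 39.5 and 37 °C, and 32.5 and 32.7 RPKM in WT at 39.5 and 37 °C. The temperature ratio was 0.785 (95% counting interval 0.759 to 0.812) in Smad4 KO, whereas in WT it was 0.993 (0.958 to 1.03), so that the response under the KO label over that in WT was 0.790 (0.752 to 0.830). The ratio of Smad4 KO to WT was 1.10 (1.06 to 1.14) at 39.5 °C and 1.39 (1.34 to 1.44) at 37 °C. Relative to Stat5a and Stat5b together, which counter STAT3 at Il17a, Stat3 stood at 0.306 and 0.317 in Smad4 KO at 39.5 and 37 °C, and at 0.305 and 0.255 in WT. The library with the lowest ratio was WT at 37 °C.

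Stat5a and Stat5b, the closely related transducers of IL-2 signals, were lower at 39.5 °C in both genotypes. Stat5a was at 52.8 and 60.1 RPKM in Smad4 KO at 39.5 and 37 °C, and at 47.5 and 63.1 RPKM in WT. Its temperature ratio was 0.880 (95% counting interval 0.851 to 0.909) in Smad4 KO and 0.753 (0.729 to 0.778) in WT. Both libraries at 39.5 °C lay below both at 37 °C. Stat5b was at 63.6 and 83.3 RPKM in Smad4 KO at 39.5 and 37 °C, and at 59.1 and 65.1 RPKM in WT, with temperature ratios of 0.764 (0.739 to 0.789) and 0.909 (0.878 to 0.941). Stat5b too was lower in both libraries at 39.5 °C than in either at 37 °C. The temperature ratio in Smad4 KO over that in WT was 1.17 (1.12 to 1.22) for Stat5a and 0.840 (0.801 to 0.881) for Stat5b, on opposite sides of 1.

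The balance of both paralogues differed between libraries. Stat5a over Stat5b was 0.830 and 0.721 in Smad4 KO at 39.5 and 37 °C, and 0.803 and 0.970 in WT at 39.5 and 37 °C. Their summed level was 116 and 143 RPKM in Smad4 KO, and 107 and 128 RPKM in WT, so that the sum was lower at 39.5 °C under both labels. The summed B cell markers were lower at 39.5 °C too, at 3.85 and 8.998 RPKM in Smad4 KO at 39.5 and 37 °C and at 4.61 and 14.4 RPKM in WT, and their part in the Stat5a and Stat5b values was not tested. Of the 2 genes in that sum, Ighm was lower at 39.5 °C under both labels and Cd79a, below 0.5 RPKM in every library, was higher. The longest annotated coding sequences of Stat5a and Stat5b were identical at 90.8% of 2291 aligned bases and shared an unbroken run of 324 bases, whereas the other 14 pairs of members were identical at between 54.4% and 62.8% and shared at most 23 bases in a row. Reads from such stretches are uncertain by gene, and the sum is the safer measure.

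Stat6, which carries the IL-4 signal of Th2 cells, varied least. It was at 61.7 and 66.9 RPKM in Smad4 KO at 39.5 and 37 °C, and at 61.8 and 59.5 RPKM in WT at 39.5 and 37 °C, a highest over lowest ratio of 1.12. The groups overlapped for both temperature and label. The 3 members Stat5b, Stat5a and Stat3 lie side by side on chromosome 11 of GRCm38, in that order, at 100780731 to 100850724 (minus strand), 100859351 to 100885169 (plus strand) and 100885098 to 100939540 (minus strand). The annotated ends of Stat5a and Stat3 overlap by 72 bases, and without stated strandedness reads from that overlap cannot be told apart. Stat4 overlaps the annotated span of Gm28177 by 29929 bases on the same strand and that of Gm3940 by 432 bases on the other. Spans include introns and the shared exon bases were not counted, so how many Stat4 reads are uncertain is not known. Neither Gm28177 nor Gm3940 has a value in these data. Stat6 overlaps Nab2 by 40 bases on the other strand. On chromosome 10, Stat6 (127642986 to 127660957) and Stat2 (128270559 to 128292849) are 609601 bases apart, both on the plus strand, and Stat4 lies on chromosome 1 (51987148 to 52107189, plus strand).

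Of the rows flanking the chromosome 11 cluster, 0 of 4 passed the shared temperature test described below, where 0.0219% of all rows did. Naglu alone passed for the genotype label, higher in Smad4 KO (log2 0.66 ± 0.13, adjusted p = 0.036 in limma). For the label 13.3% of all rows passed, and nothing is read from a count of 1 in 4. Rab5c, 42515 bases to the left, was at 126.6 and 127 RPKM in Smad4 KO at 39.5 and 37 °C and at 105 and 107 RPKM in WT. Ghdc, 9773 bases to the left, was at 3.19 and 3.18 RPKM in Smad4 KO and at 3.14 and 1.998 RPKM in WT. On the right, Atp6v0a1 was at 2.47 and 3.48 RPKM in Smad4 KO and at 2.70 and 2.48 RPKM in WT. Naglu, farther to the right, was at 10.3 and 10.9 RPKM in Smad4 KO and at 5.65 and 7.17 RPKM in WT. The level of Naglu was lower at 39.5 °C under both labels, but its shared temperature change (log2 −0.19 ± 0.13) did not pass. Rab5c was nearly level between the temperatures (−0.02 ± 0.11).

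**Figure D3:**
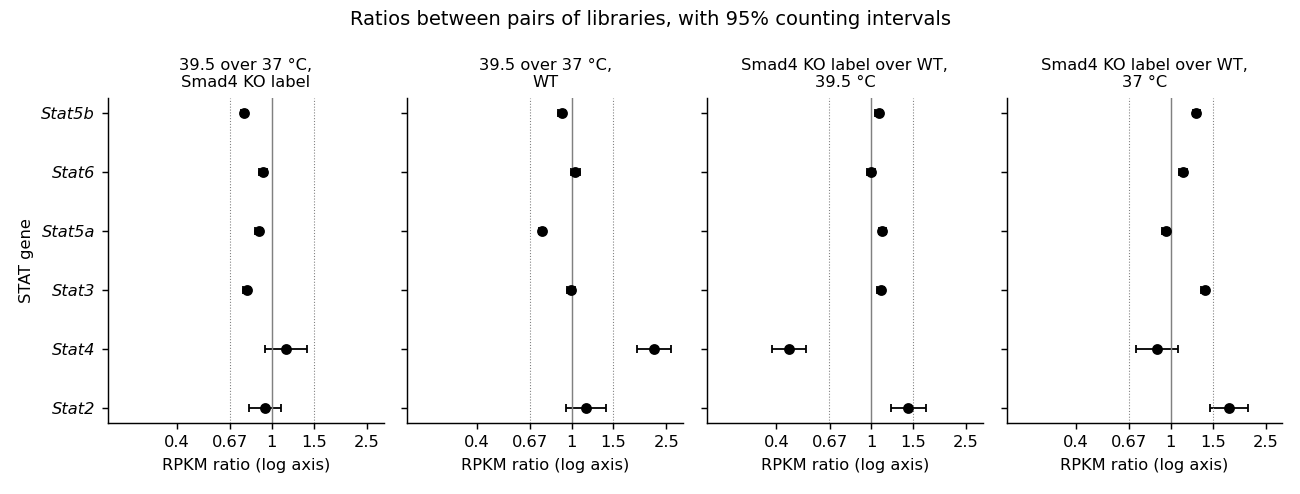
Ratios of RPKM (log axis) between pairs of libraries for each STAT gene, from left to right 39.5 over 37 °C in Smad4 KO and in WT, then Smad4 KO over WT at 39.5 and at 37 °C. Bars are exact 95% counting intervals, dotted lines mark 1.5-fold, and the points farthest from 1 are those of Stat4 for WT temperature (2.21) and for the label at 39.5 °C (0.454).

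Changes common to both pairs of libraries were tested across all rows with limma, in an additive model of genotype label and temperature with Benjamini-Hochberg adjustment. For temperature 0 of 6 STAT genes passed an adjusted p of 0.05, where 0.0219% of all rows did, and Stat4 alone had an unadjusted p under 0.05, as 14.0% of all rows had. Its shared log2 change was 0.54 ± 0.21 (SE, adjusted p = 0.352). Stat5a had −0.29 ± 0.13 and Stat5b −0.26 ± 0.13, with adjusted p of 0.388 and 0.442. The median of the 6 members was −0.10, against −0.02 over all rows. Stat2, Stat3 and Stat6 were at 0.03, −0.18 and −0.03.

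For the genotype label 0 of 6 passed as well, where 13.3% of all rows did. Stat2 came closest, with a log2 change of 0.47 ± 0.14 (adjusted p = 0.086) that passed with limma-voom on the recovered reads (0.66, adjusted p = 0.030). Stat4 had −0.54 ± 0.21 (adjusted p = 0.142) and Stat3 0.30 ± 0.14 (adjusted p = 0.195). At an unadjusted p under 0.05 there were 1 member higher, Stat2, and 1 lower, Stat4, where 34.6% of all rows were below that p. The median over the members was 0.15, against −0.01 over all rows. The fit leaves 1 residual degree of freedom, and its p-values set a change against the interaction and a trend over all genes, with no spread between cultures behind them.

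Around the STAT genes, some JAK-STAT pathway genes differed with the genotype label, in lists chosen with earlier results of these data known. Of 83 pathway genes tested, drawn from 9 lists that share some genes, 20 rose and 9 fell under the KO label in the same limma fit, where 8.57% of all rows rose and 4.70% fell. Of the 20, 4 (Il10ra, Il4, Irf7 and Oas3) were under 1 RPKM in both WT libraries and so could enter the test only because they were high under the KO label, as were 102 of the 1176 rows that rose in all. Nothing is read from the counts against those shares. For temperature 0 of the 83 passed. Every one of the 29 calls rests on the filter: without it 0 rows of the table passed for the label, and the adjusted p of these 29 genes was then 0.055 or more.

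**Figure D4:**
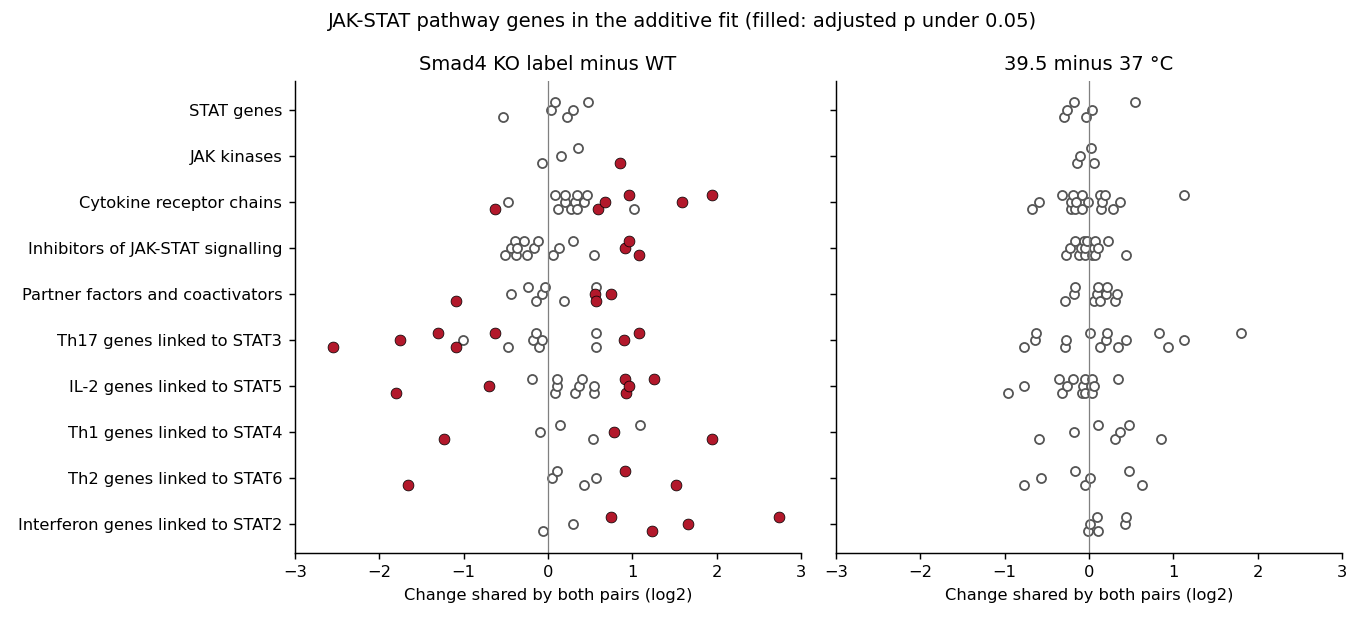
Shared log2 changes of the STAT genes and of 9 lists of JAK-STAT pathway genes in the additive fit, for Smad4 KO minus WT (left) and 39.5 minus 37 °C (right), 1 point per gene. Filled points have an adjusted p under 0.05, and all of them are in the left panel, with none among the STAT genes.

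Upstream, Jak3, the kinase bound to the common γ chain of the IL-2 and IL-21 receptors, was the 1 of 4 JAK genes that rose. It was at 93.5 and 105 RPKM in Smad4 KO at 39.5 and 37 °C, against 52.4 and 56.7 RPKM in WT (log2 0.85 ± 0.12, adjusted p = 0.017). Both KO-labelled libraries were clear of both WT libraries, which is no separate support for a gene named because it passed. Jak1, Jak2 and Tyk2 had log2 changes of −0.07, 0.16 and 0.36 and did not pass. Among 18 receptor chains 5 rose and 1 fell, where 8.57% of all rows rose and 4.70% fell. The list median, with Il10ra in it, was 0.34, against −0.01 over all rows. Il12rb2, the inducible chain of the IL-12 receptor that feeds STAT4, rose and was at 7.24 and 15.6 RPKM in Smad4 KO at 39.5 and 37 °C, against 1.87 and 2.26 RPKM in WT (1.94 ± 0.22, adjusted p = 0.015).

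The remaining receptor genes that rose were Il21r and Il27ra, whose receptors signal through STAT3, Il10ra, the ligand-binding chain for IL-10, and Ifngr2, a chain of the interferon γ receptor. Il10ra, at 2.03 and 6.05 RPKM in Smad4 KO at 39.5 and 37 °C and at 0.474 and 0.612 RPKM in WT, passed the filter only through the KO-labelled libraries. Il21r was at 88.6 and 93.6 RPKM in Smad4 KO at 39.5 and 37 °C, against 54.2 and 39.3 RPKM in WT (log2 0.96 ± 0.16, adjusted p = 0.025). Il6st, which encodes the gp130 chain shared by IL-6 family receptors, fell and was at 2.85 and 2.61 RPKM in Smad4 KO, against 5.14 and 4.43 RPKM in WT (−0.63 ± 0.13, adjusted p = 0.039). For temperature the receptor gene with the largest change was Il23r, at 4.13 and 1.53 RPKM in Smad4 KO at 39.5 and 37 °C and at 6.66 and 2.25 RPKM in WT (1.13 ± 0.14, adjusted p = 0.073).

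Of 16 genes for inhibitors of the pathway 3 rose (Socs1, Socs3 and Cish) and 0 fell with the label. Of all rows 8.57% rose and 4.70% fell. The other 5 of 8 SOCS family genes in the list did not pass, and 4 of them were below 0, Socs4 lowest at −0.51 ± 0.15 (adjusted p = 0.084). Socs3, the feedback inhibitor of STAT3, was at 10.2 and 16.4 RPKM in Smad4 KO at 39.5 and 37 °C, against 5.84 and 5.37 RPKM in WT (log2 1.08 ± 0.20, adjusted p = 0.031). Socs1 was at 50.6 and 62.0 RPKM, against 32.2 and 24.9 RPKM in WT, and Cish, the classical STAT5 target, at 52.0 and 71.5 RPKM, against 36.3 and 27.9 RPKM. For each of these 3 genes both KO-labelled libraries lay above both WT libraries, with the gap wider at 37 °C. They were named because they passed the label test, so that separation is no separate support. Over all rows too, more passed 1.5-fold for the label at 37 °C (18.8%) than at 39.5 °C (15.4%). The call of Cish was also lost with upper quartile scaling and without a variance trend (adjusted p up to 0.106 over the alternatives). The list median was −0.14, against −0.01 over all rows. With 9 of the 16 genes below 0, that median was opposite in sign to the 3 calls.

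Of 11 partner factors and coactivators 3 rose and 1 fell, where 8.57% of all rows rose and 4.70% fell. Irf9, which binds DNA within the STAT2 complex, rose, at 8.17 and 7.83 RPKM in Smad4 KO at 39.5 and 37 °C, against 4.66 and 4.12 RPKM in WT (log2 0.74 ± 0.13, adjusted p = 0.026). The AP-1 genes Junb and Jund rose by 0.56 ± 0.10 and 0.57 ± 0.12 (adjusted p = 0.029 and 0.038), calls that were lost without a variance trend too. Batf, the AP-1 factor that opens Th17 loci ahead of STAT3, fell and was at 61.9 and 46.6 RPKM, against 116 and 115.6 RPKM in WT (−1.10 ± 0.14, adjusted p = 0.016).

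Of the 15 genes linked to STAT2 and interferon in the table, 6 reached a mean of 1 RPKM. Of these 4 rose and 0 fell under the KO label, where 8.57% of all rows rose and 4.70% fell. The 4 include Irf7 and Oas3, which were under 1 RPKM in both WT libraries and passed the filter through the KO-labelled ones, so that 2 calls, Isg15 and Irf9, remain without them and no median is given. Isg15, a ubiquitin-like interferon product, was at 6.68 and 4.87 RPKM in Smad4 KO at 39.5 and 37 °C, against 1.51 and 0.799 RPKM in WT (log2 1.66 ± 0.14, adjusted p = 0.0098). Oas3 was at 7.63 and 6.91 RPKM, against 0.271 and 0.217 RPKM in WT, and Irf7 at 1.999 and 2.13 RPKM, against 0.315 and 0.291 RPKM. In all 3, as in Irf9, both KO-labelled libraries lay above both WT libraries. For genes named because they passed the label test, that is no separate support. Ifit2 and Bst2 did not pass (−0.06 ± 0.16 and 0.30 ± 0.12, adjusted p = 0.810 and 0.150).

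Th17 genes linked to STAT3 went both ways, 2 of 15 rising and 5 falling with the label, where 8.57% of all rows rose and 4.70% fell. The list median, with Il24 in it, was −0.17, against −0.01 over all rows. Il24, at 0.972 and 0.515 RPKM in WT at 39.5 and 37 °C, passed the filter only through Smad4 KO at 37 °C (3.97 RPKM). Those that fell were Il17a, Il17f, Rora, Batf and Il6st. Il17a, the signature cytokine gene, was at 79.7 and 32.6 RPKM in Smad4 KO at 39.5 and 37 °C, against 686 and 134 RPKM in WT (log2 −2.55 ± 0.26, adjusted p = 0.014). Rora, which encodes the nuclear receptor RORα, was at 2.38 and 1.93 RPKM, against 8.80 and 5.14 RPKM in WT (−1.30 ± 0.16, adjusted p = 0.016). Those that rose were Socs3 and Bcl3, an IκB family gene that was at 58.0 and 88.8 RPKM, against 29.8 and 48.5 RPKM in WT (0.90 ± 0.12, adjusted p = 0.016). Stat3 itself had 35.6 and 45.4 RPKM in Smad4 KO and 32.5 and 32.7 RPKM in WT, a direction opposite to that of Il17a.

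Of 15 genes linked to STAT5 and IL-2, 4 rose (Cish, Socs1, Bcl2 and Pim2) and 2 fell (Foxp3 and Ccnd2). Of all rows 8.57% rose and 4.70% fell. The list median was 0.36, against −0.01 over all rows. Pim2, a survival kinase gene, was at 323 and 508 RPKM in Smad4 KO at 39.5 and 37 °C, against 137 and 334 RPKM in WT (log2 0.92 ± 0.17, adjusted p = 0.031). Pim2 was lower at 39.5 °C under both labels, as were Stat5a and Stat5b, but its temperature change did not pass (−0.97 ± 0.17, adjusted p = 0.126). Foxp3, the regulatory T cell factor whose expression needs STAT5, was at 0.477 and 1.98 RPKM in Smad4 KO, against 5.10 and 7.80 RPKM in WT (−1.81 ± 0.17, adjusted p = 0.012). Bcl2, which encodes a survival protein, rose by 1.25 ± 0.29 (adjusted p = 0.049), a call lost also with upper quartile scaling and without a variance trend (adjusted p up to 0.118 over the alternatives).

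The Th1 and Th2 lists linked to STAT4 and STAT6 had 7 tested genes each. For the label the STAT4 list had a median of 0.53, against −0.01 over all rows. No median is given for the STAT6 list, because Il4 and Il24 were under 1 RPKM in both WT libraries. Il24 was at 0.972 and 0.515 RPKM in WT at 39.5 and 37 °C. Of all rows 8.57% rose and 4.70% fell with the label. In the STAT4 list Il12rb2 and Irf1 rose and Ikzf3 fell. Tbx21, which encodes the Th1 factor T-bet, was higher at 39.5 °C under both labels, at 1.81 and 0.501 RPKM in Smad4 KO at 39.5 and 37 °C and at 1.46 and 0.419 RPKM in WT (temperature log2 0.85 ± 0.16, adjusted p = 0.136). Under 1 RPKM in both libraries at 37 °C, Tbx21 passed the filter only through those at 39.5 °C, and nothing is read from its temperature change. In the STAT6 list Il4 and Cish rose and Ccr8 fell, Il4 again past the filter only through the KO-labelled libraries. Ccr8, a chemokine receptor gene of Th2 and regulatory T cells, was at 17.2 and 12.6 RPKM in Smad4 KO at 39.5 and 37 °C, against 58.9 and 40.5 RPKM in WT (log2 −1.66 ± 0.12, adjusted p = 0.0078). Il4 was at 1.37 and 3.60 RPKM (31 and 78 reads) in Smad4 KO, against 0.0844 and 0.224 RPKM (2 and 5 reads) in WT, while Stat6 varied by the ratio of 1.12 given above.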

How the data were processed

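RNA-seq was made from 4 libraries, 1 per group, grouped by the genotype and temperature in their titles. Trim Galore 0.4.4, Bowtie2, Subread, featureCounts and edgeR are named, with build mm10, per the submitters' processing notes; the sources used here state neither their order and settings nor strandedness or annotation release. The authors deposited 1 table of RPKM values per library, 19555 rows each. Since RPKM values are not counts, no count test was the main test. Bowtie2 does not split reads over introns, so where it placed reads on the genome, genes of many short exons would read low in all libraries alike. Levels, shares and order compared between genes of 1 library would carry that bias.

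Multiplied by exon length and library size, RPKM values gave whole reads, within 0.01 reads at the GENCODE vM21 length for 91.7% of 13144 matched rows, all 6 STAT genes among them, and for 19553 rows once a length was allowed per row (within 0.003 reads). Library sizes behind the RPKM values were 0.955 to 1.06 times the recovered reads. The 6 STAT genes had 180 to 8198 reads per library. The labels name no molecular identifiers, and PCR copies are not independent, so the 95% intervals (exact Clopper-Pearson, given a pair's summed reads) cover counting error only. The interval of a ratio of ratios uses a normal approximation to the counting error on the log scale.

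Values were analysed as log2(RPKM + 1) for 13715 rows whose mean reached 1 RPKM. Pairs of libraries have no test and a size rule of 1.5-fold. The shared tests used limma 3.58.1 in R 4.3.3 (additive model, empirical Bayes with a variance trend, adjusted p under 0.05 over all rows). Scripts were tested on simulated data. The alternatives were pseudocounts of 0.5 and 0.1, other minimum means, upper quartile, median-ratio and total-read scaling, no variance trend, limma-voom on recovered reads and a 2-fold rule. The members and lists were chosen with earlier results of these data known. Beyond the STAT genes, the text names list genes that pass a shared test or have the 2 highest or 2 lowest changes of their list, and the 3 nearest rows in pattern for members that vary at least 1.5-fold. Of 107 listed pathway genes 99 were in the table and 83 passed the filter. Of the 7 STAT family genes, 1 is not reported here. Motifs were searched in RefSeq promoter sequences, whose build GRCm38.p6 is that of mm10.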

Additional observations from a re-analysis of the deposited data

Results flagged for a closer look

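Stat2 and Stat6 lay on opposite sides of no change at 39.5 °C against 37 °C in the 2 genotypes. The RPKM ratio of Stat2 was 0.938 in Smad4 KO and 1.15 in WT, and that of Stat6 was 0.921 in Smad4 KO and 1.04 in WT. For Stat2 both 95% counting intervals include 1, and for Stat6 that of WT (0.999 to 1.08) does.

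Stat5a and Stat6 lay on opposite sides for the genotype label at the 2 temperatures. The ratio of Smad4 KO to WT was 1.11 at 39.5 °C and 0.952 at 37 °C for Stat5a, and 0.997 at 39.5 °C and 1.12 at 37 °C for Stat6. With 1 library per group none of these differences was tested.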

How the results depend on the processing

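No paired analysis was possible because each group had 1 library and the labels give no replicate numbers; leaving out a library was not possible for the same reason. Over all alternatives 0 of the 6 STAT genes passed the shared temperature test, and Stat4 had adjusted p between 0.184 and 0.493 there. For the genotype label 1 STAT gene, Stat2, passed with limma-voom on recovered reads, and 0 passed otherwise (adjusted p of Stat2 0.030 to 0.150). The label change of Stat5a, 0.04, turned to −0.0023 with upper quartile scaling. The WT temperature difference of Stat3, −0.01, was 0.04 with upper quartile and 0.06 with total-read scaling.

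With pseudocounts of 0.5 and 0.1, 1 STAT gene, Stat2, passed 1.5-fold for the label at 37 °C (log2 0.67 and 0.78), against 0 with a pseudocount of 1. Under a 2-fold rule with that pseudocount 0 STAT genes passed for temperature in WT, for the label at 39.5 °C and for the difference between responses, where Stat4 had 0.93, −0.93 and −0.78.

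Without a filter on low values, 0 of 99 pathway genes rose or fell with the label, against 20 and 9, and 0 of 19555 rows did, against 1176 higher and 644 lower with the filter. With limma-voom 2931 rows passed for the label in either direction, 1296 of them lower. For temperature 2 rows were higher and 1 lower. That became 9 higher with a pseudocount of 0.5, 19 higher and 11 lower with 0.1, 178 and 112 with a minimum mean of 5 RPKM, 53 and 30 with median-ratio scaling, 225 and 131 with limma-voom, and 0 and 0 without a filter or without a variance trend. Pathway genes that passed for temperature numbered 3 higher (among them Il17a and Il17f) and 2 lower (Bcl3, Pim2) with a minimum mean of 5 RPKM, 2 higher (Il17a, Il23r) with median-ratio scaling, and 4 higher (among them Il17a, Il23r and Tbx21) and 2 lower (Bcl3, Pim2) with limma-voom. The cause of these shifts was not tested. Tbx21, under 1 RPKM in both libraries at 37 °C, passed the filter only through those at 39.5 °C, and nothing is read from its call. With 1 library per group, counting intervals of Stat2 and Stat4, at 180 to 499 reads, were the widest of the 6; neither gene was tested at a minimum mean of 5 RPKM.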
